A study of Rattus norvegicus with 6 samples.

Results

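Inhbe, Gdf15 and Fgf21, genes for hormones that cells secrete under stress, were followed in INS-1E cells kept with uric acid and in untreated INS-1E cells. They are 3 of the 19289 rows of the deposited rat table, taken by gene symbol from a list of 4 names; the fourth, Stc2, was not analysed here. The names were selected on the FPKM and log2 fold change of these same libraries in the uric acid contrast, so the values of these genes in that contrast are a description, given with no test. INS-1E is an insulin-secreting line derived from a rat insulinoma. The uric acid group was 3 libraries of INS-1E cells exposed for 24 hours, and the untreated group was 3 libraries of INS-1E cells without it. No culture time is recorded for the untreated libraries. The labels give no concentration, vehicle or passage, name no other agent, and do not say whether the 3 libraries of a group were separate cultures. The p-values below therefore measure only the spread between these libraries, which may be technical.

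Inhbe encodes the beta E subunit of activin E, a member of the TGF-beta family best known as a product of the liver. Ligands of this family are made as precursors, cut by furin-like proteases, and bind paired type I and type II receptor kinases that act through SMAD proteins. Gdf15 encodes a distant member of the same family that acts on the hindbrain receptor GFRAL, which signals through RET, and lowers food intake. Fgf21 encodes an endocrine fibroblast growth factor that needs the coreceptor beta-klotho beside an FGF receptor. In other cells the genes are known as targets of ATF4 and CHOP (encoded by Ddit3), transcription factors of the integrated stress response, which bind C/EBP-ATF response elements.

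The upstream sequences of the 3 genes are shown because all 3 genes were higher with uric acid and this element has a known sequence. All 3 matched RefSeq entries of the GRCr8 assembly, and for each the 250 bases before the annotated start are printed 5′ to 3′ on the strand of the gene. The windows are chr7:65064520-65064769 on the minus strand for Inhbe and chr1:105221377-105221626 on the minus strand for Fgf21. For Gdf15, which has 2 annotated starts, the window of the second start is printed, chr16:18839015-18839264 on the plus strand. Capitals mark matches to TGATGNAA, the core of the C/EBP-ATF element, and to TATAAA, the TATA box.
Inhbe: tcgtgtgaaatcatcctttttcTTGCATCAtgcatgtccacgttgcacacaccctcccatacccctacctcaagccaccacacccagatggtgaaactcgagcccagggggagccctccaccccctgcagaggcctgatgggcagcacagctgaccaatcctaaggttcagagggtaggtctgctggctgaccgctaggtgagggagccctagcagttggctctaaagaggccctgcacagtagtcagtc
Fgf21: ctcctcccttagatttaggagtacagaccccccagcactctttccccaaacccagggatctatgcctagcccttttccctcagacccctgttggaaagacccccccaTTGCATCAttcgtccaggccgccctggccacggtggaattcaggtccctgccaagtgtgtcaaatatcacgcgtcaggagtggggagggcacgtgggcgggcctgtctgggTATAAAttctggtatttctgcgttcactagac
Gdf15: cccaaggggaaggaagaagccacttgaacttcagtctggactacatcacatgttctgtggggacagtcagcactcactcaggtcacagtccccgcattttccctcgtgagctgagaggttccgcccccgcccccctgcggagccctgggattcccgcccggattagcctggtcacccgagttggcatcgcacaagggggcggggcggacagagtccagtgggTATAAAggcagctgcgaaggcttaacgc

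Inhbe and Fgf21 each held 1 match to TGATGNAA, with the same 8 letters in both, starting 228 bases before the start of Inhbe and 143 bases before that of Fgf21. Neither Gdf15 window held one. Turned to the strand on which the element reads forward, which is the plus strand for both genes, the matches with 8 bases on either side (chr7:65064732-65064755 and chr1:105221504-105221527, GRCr8) line up as follows, with the match in capitals.
Inhbe: gacatgcaTGATGCAAgaaaaagg
Fgf21: tggacgaaTGATGCAAtggggggg
Searched on both strands, TGATGNAA was found in 3.40% of 33469 RefSeq windows of the same 250 bases. That share is over all annotated windows, not over genes expressed in these cells. Of the tested features only 72.2% matched a window, so a share over all of them is not given. Fgf21 and the second Gdf15 window each held 1 TATAAA, a motif found in 12.9% of the windows, and no match overlapped another. Neither TGACGTCA (the cAMP element, which is its own reverse complement, in 1.59% of windows) nor the endoplasmic reticulum stress element ERSE (in 0.0657%) occurred in any of the 4 member windows. A match describes letters in a window and shows no binding.

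Each library is a bulk RNA sample, so a change in how many cells hold a message and a change in message per cell cannot be told apart. Summed estimated counts ran from 41191819 to 48875962 in uric acid libraries and from 47858248 to 59092982 in untreated libraries. A full read pair was taken to be worth up to 4 of these counts. The full read pairs given below are counts divided by this set value. Levels are the authors' FPKM, fragments relative to the length of the transcript and the size of the library. A feature was tested where its FPKM averaged 1 or more (12460 features), and 994, or 7.98%, differed at an adjusted p under 0.05 (edgeR quasi-likelihood test, Benjamini-Hochberg over all tested features). This total ranged from 231 to 1173 with 1 library left out, the lowest being without untreated library 2. An unadjusted p under 0.05 was found for 3199 of the 12460 tested features. On the first principal component, uric acid library 3 was the closest of its group to the untreated libraries (-3.32, beside -15.7 and -33.2 for uric acid libraries 1 and 2 and 11.1 to 23.0 for untreated libraries). Of 17 beta-cell markers 16 were measured and all 16 were expressed above the filter; 0 rose and 1, Mafa, fell (edgeR adjusted p = 0.0129; 7 at an unadjusted p under 0.05), though not when uric acid library 1 (0.071) or untreated library 1 (0.0564) was left out. Markers of hepatocytes, cells that express Inhbe and Fgf21, were near 0: the 5 of 8 that were measured summed to 1.39 to 1.80 FPKM in uric acid libraries and 0.735 to 1.72 FPKM in untreated libraries.

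Inhbe was close to silent in untreated cells and clearly present in all 3 uric acid libraries. It had 10.6, 14.3 and 5.62 FPKM in uric acid libraries 1, 2 and 3, against 0.280, 0.466 and 0.338 FPKM in untreated libraries 1, 2 and 3. The groups did not overlap, and the lowest uric acid library stood 12.1-fold above the highest untreated library. Relative to the mean of the untreated libraries, uric acid libraries 1, 2 and 3 were 29.4-, 39.6- and 15.6-fold higher, so the highest uric acid library, 2, was 2.54-fold above the lowest, 3. The estimated counts behind these levels were 1706, 1950 and 846 in uric acid libraries and 55, 81 and 54 in untreated libraries, where they are worth only 13.5 to 20.25 full read pairs. The log2 fold change was 4.82 ± 0.36 (SE), the second largest of 12460; the largest belonged to AABR07043200, a feature without a settled symbol listed at 0 in every untreated library. The untreated mean of Inhbe, 0.361 FPKM, lies under the filter, so it entered the tested set through the uric acid libraries. Inhbe is ENSRNOG00000007601, on the minus strand of chromosome 7 from 70640075 to 70643169, as the deposited table places it; the sources used here give no build for these positions.

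Gdf15 was the most abundant of the hormone messages in both groups. It had 70.3, 93.8 and 45.3 FPKM in uric acid libraries 1, 2 and 3, against 19.7, 21.0 and 20.7 FPKM in untreated libraries 1, 2 and 3. The untreated libraries were nearly alike (coefficient of variation 3.34%), while the uric acid libraries varied 2.07-fold between highest and lowest (34.7%) and none of them overlapped the untreated range. Uric acid libraries 1, 2 and 3 stood at 3.43, 4.58 and 2.21 times the untreated mean, the same order of libraries as for Inhbe. Library 3 was also the closest of its group to the untreated libraries over all features, and the part of this in its lower Inhbe and Gdf15 was not tested. The log2 fold change was 1.77 ± 0.22 (SE), which ranked 21 among the 12460 tested features. By mean FPKM it stood at place 1021 of 19289 listed features in uric acid cells and at place 3708 in untreated cells. Gdf15 is ENSRNOG00000019661, on the plus strand of chromosome 16 from 20555395 to 20557978.

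Fgf21 stayed a low message in both groups and was about 2-fold higher with uric acid. It had 3.81, 3.45 and 3.44 FPKM in uric acid libraries 1, 2 and 3, against 1.69, 1.97 and 1.30 FPKM in untreated libraries 1, 2 and 3. The uric acid libraries lay close together (coefficient of variation 5.92%) and above all untreated libraries, which varied more (20.5%). Library 3, the lowest of the uric acid group for Inhbe and Gdf15, was here level with library 2. The counts are small: 141, 109 and 120 in uric acid libraries and 77, 79 and 48 in untreated libraries, or 12 to 35.25 full read pairs. The log2 fold change was 1.10 ± 0.23 (SE), rank 77 of 12460, and with 1 library left out it ranged from 0.97 to 1.24. Fgf21 is ENSRNOG00000020990, on the minus strand of chromosome 1 from 101595579 to 101596822.

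**Figure D1:**
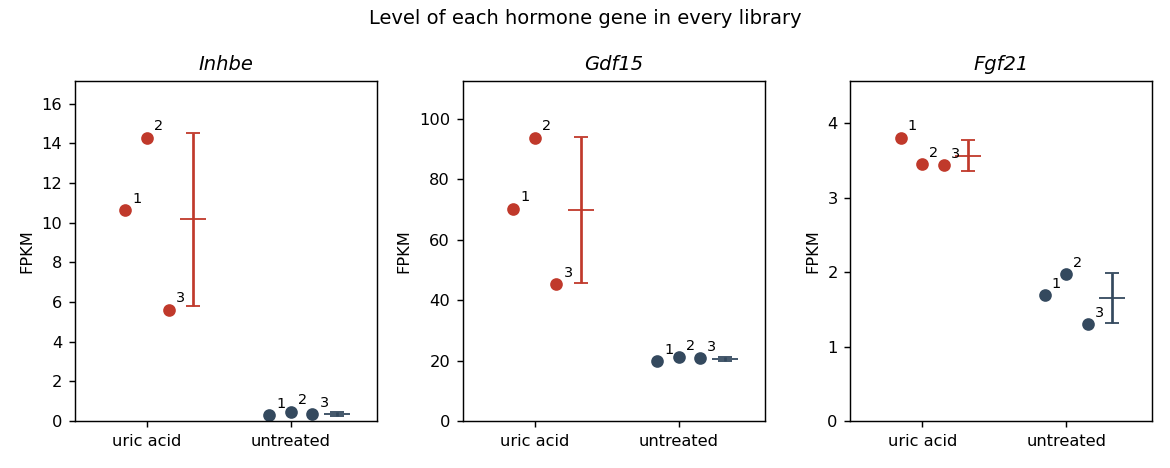
Level in FPKM (vertical axes from 0, one scale per gene) of Inhbe, Gdf15 and Fgf21 in each uric acid and untreated library, numbered points with the mean and SD (n = 3 per group) beside them. Inhbe and Gdf15 are spread widely over the uric acid libraries with library 2 highest. Fgf21 lies between 3.44 and 3.81 FPKM in all 3, at only 27.25 to 35.25 full read pairs a library. Whether the spread differs between the genes was not tested.

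Set side by side, the 3 messages summed to 84.8, 112 and 54.4 FPKM in uric acid libraries 1, 2 and 3, against 21.7, 23.5 and 22.4 FPKM in untreated libraries 1, 2 and 3. Gdf15 made up most of this sum in every library, 83.0 to 84.1% with uric acid and 89.6 to 92.7% without. Inhbe took 10.3 to 12.8% in uric acid libraries and 1.29 to 1.98% in untreated libraries. The order of the levels differed between the groups: with uric acid it was Gdf15, Inhbe, Fgf21, and without uric acid Gdf15, Fgf21, Inhbe, and in neither group did the libraries of neighbours in that order overlap. The choice of the genes fixed that all 3 lie past the threshold on the higher side, beside 4.99% of all tested features called higher and 2.99% called lower, and all 3 had groups that did not overlap, beside 16.8% of features with all uric acid libraries above all untreated ones. As the genes were selected on this contrast, these counts are no test and nothing is read from them. Without uric acid library 1, or without untreated library 1, 2 or 3, the adjusted p of Fgf21 was above 0.05, so that 2 of the genes lay past the threshold in each of those fits.

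**Figure D2:**
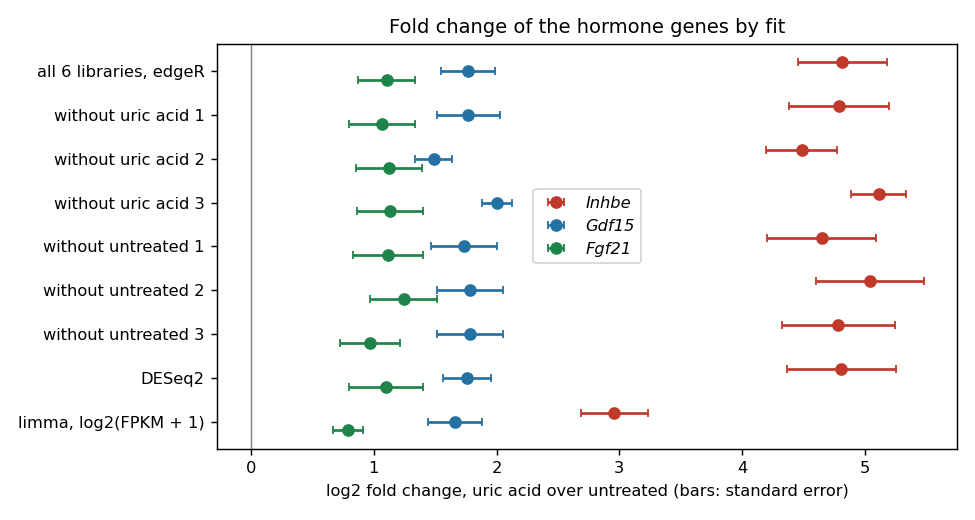
Log2 fold change of the 3 hormone genes, uric acid over untreated, with its standard error, in the fit of all 6 libraries, with each library left out, and with DESeq2 or limma. Inhbe stays between 4.48 and 5.11 with a library left out and drops to 2.96 on log2(FPKM + 1), where the added 1 exceeds its untreated level.

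The profiles most like each hormone gene were found by the smallest root mean square difference over the 6 libraries, on log2 CPM, counts relative to the size of the library, set to 0 at the mean of the untreated libraries. This likeness follows mainly from the group difference and is a description over 6 libraries. Only tested features with a settled symbol were searched. Nearest to Gdf15 was Ddit3, which encodes CHOP, at a difference of 0.081 log2 units (Pearson's r = 0.999). The 2 rows were also alike in level, Ddit3 with a mean of 70.4 FPKM in uric acid cells and 19.3 FPKM in untreated cells, beside 69.8 FPKM in uric acid cells and 20.5 FPKM in untreated cells for Gdf15. Ddit3 overlaps Mars1, a gene of the opposite strand, and as the strand used in counting is unknown, its value may hold reads of Mars1. Next came Angptl8 at 0.117, a secreted protein that helps to inhibit lipoprotein lipase, with a mean of 55.6 FPKM in uric acid cells and 15.5 FPKM in untreated cells. Angptl8 overlaps Dock6 on the other strand. Ciart, a circadian repressor, stood at 0.134 and G0s2, an inhibitor of adipose triglyceride lipase, at 0.143.

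For Fgf21 the nearest profiles were Klf11, a Kruppel-like transcription factor, at 0.161, Nr1d1, the clock repressor REV-ERB alpha, at 0.165, Slc38a2, a carrier of small neutral amino acids, at 0.174, and Cecr2, a chromatin remodelling factor, at 0.178. Nr1d1 overlaps Thra on the other strand. Klf11 had a mean of 19.7 FPKM in uric acid cells and 9.73 FPKM in untreated cells. Among features with a settled symbol Inhbe had no close match. AABR07006025, which has no such symbol and was not searched, had a log2 fold change of 4.79. Chac1, which degrades glutathione, was nearest at 0.772, then Trib3, a pseudokinase, at 0.793. After them came Atf3, a stress factor, at 0.926 and Slc7a11, the cystine carrier, at 1.15. The untreated means of Atf3, Slc7a11 and AABR07006025 were 0.710, 0.264 and 0.0732 FPKM, under the filter. These features entered the tested set through the uric acid libraries. Chac1, Trib3, Atf3 and Slc7a11 all had smaller differences from untreated than Inhbe in each uric acid library. Among the hormone genes, Gdf15 and Fgf21 differed by 0.549, Inhbe and Gdf15 by 2.13, and Inhbe and Fgf21 by 2.58 log2 units.

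**Figure D3:**
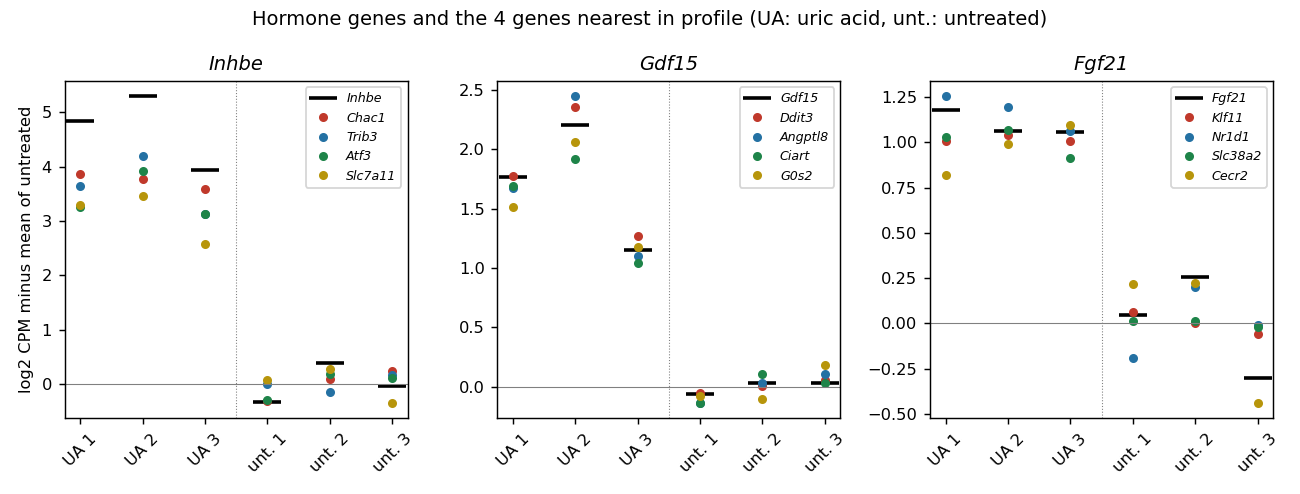
Log2 CPM minus the mean of the untreated libraries, for each hormone gene (black bars) and the 4 tested genes with a settled symbol nearest to it (coloured points), in uric acid libraries 1 to 3 and untreated libraries 1 to 3. The Gdf15 panel shows library 2 highest and library 3 lowest in all 5 genes, and the Fgf21 panel shows the 3 uric acid libraries near 1.

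Among the tested chromosomal neighbours of the hormone genes 2 passed the threshold, Fut1 beside Fgf21 and Mars1 near Inhbe. Within 50 kb, 1 gene was tested for Inhbe, 6 for Gdf15 and 3 for Fgf21, beside 7.98% of all tested features called. With so few genes, the count is not read as a trait of these loci. No listed feature overlaps any of the 3 genes. Fut1, a fucosyltransferase that builds the H blood group antigen, lies 2196 bases from Fgf21 on the opposite strand, so that the 2 genes point away from each other, and it rose with uric acid. It had 7.67, 7.14 and 5.59 FPKM in uric acid libraries 1, 2 and 3, against 1.49, 1.51 and 1.89 FPKM in untreated libraries 1, 2 and 3, a log2 fold change of 2.06 ± 0.16 (SE, edgeR adjusted p = 0.000264). Its groups were apart and it passed the threshold with any 1 library left out. Of the other 2 tested genes within 50 kb of Fgf21, Rasip1 stood at -0.14 (adjusted p = 0.618) and Bcat2, a branched-chain aminotransferase, at 0.07 (0.791). Fut1 and Mars1 were singled out after their values were seen.

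Around Inhbe, Inhbc, the gene of a related activin subunit, lies 3350 bases away on the same strand and was listed at 0 in 5 libraries and at 0.0164 FPKM in uric acid library 1. The 1 tested neighbour, Mars1, encodes methionyl-tRNA synthetase and lies 37765 bases away. It had 81.9, 94.7 and 74.0 FPKM in uric acid libraries 1, 2 and 3, against 56.2, 58.0 and 57.5 FPKM in untreated libraries 1, 2 and 3 (log2 fold change 0.54 ± 0.09, edgeR adjusted p = 0.00928), a call lost without untreated library 2 (0.0563). As Mars1 overlaps Ddit3, its value may hold reads of that gene. None of the 6 tested neighbours of Gdf15 passed the threshold with edgeR. The nearest of these, Ssbp4, stood at 0.20 (adjusted p = 0.127), and the lowest, Pgpep1, at -0.41 (0.0592).

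**Figure D4:**
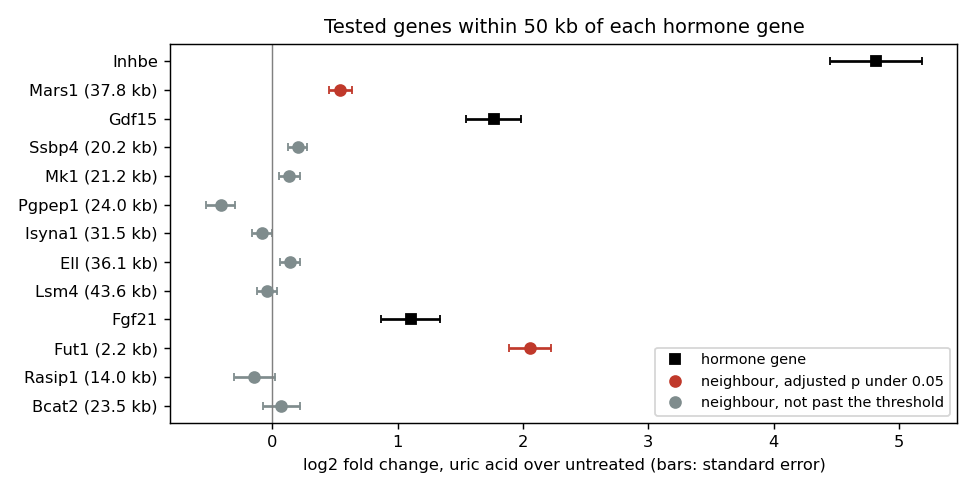
Log2 fold change with its standard error, uric acid over untreated, of each hormone gene (squares) and the tested genes within 50 kb of it (circles, with the gap in kb). Fut1 beside Fgf21 (2.06) and Mars1 near Inhbe (0.54) passed the threshold, and the 6 neighbours of Gdf15 did not.

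The relatives of Inhbe and Gdf15 in the TGF-beta family showed no common rise. Of 31 other ligands 19 were in the table and 7 were tested, of which 1 rose and 0 fell (3 at an unadjusted p under 0.05). Beside the counts of this and the later lists stand 4.99% of all tested features called higher and 2.99% called lower. Beside their counts at an unadjusted p under 0.05 stand 3199 of all 12460 tested features. In a list this short, 1 call is not read as a trait of the list. The median log2 fold change of the 7 ligands was 0.02, beside 0.00127 over all tested features. With DESeq2 1 rose and 1, Inhbb, fell; without uric acid library 3 edgeR called 1 higher and 1 lower (Tgfb2). Inhbb, which encodes the activin B subunit and was the most abundant inhibin or activin subunit in untreated cells, had 3.62, 4.16 and 4.42 FPKM in uric acid libraries 1, 2 and 3, against 5.68, 5.09 and 5.52 FPKM in untreated libraries 1, 2 and 3. The groups did not overlap, but the difference missed the threshold (-0.42 ± 0.12, SE, edgeR adjusted p = 0.063, and 0.0128 with DESeq2). Beside this gene and those below stand 31.0% of all tested features whose groups did not overlap in either direction. Inhba, the activin A subunit, averaged 0.372 ± 0.124 FPKM in uric acid cells and 0.399 ± 0.194 FPKM in untreated cells (SD, n = 3 each), and Inha, the inhibin alpha subunit, was listed at 0 in 5 libraries and at 0.0441 FPKM in uric acid library 1. With uric acid, Inhbe was thus above every other inhibin or activin subunit in each library, and in untreated cells it was below Inhbb in each library.

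The 1 ligand that rose was Bmp3, a bone morphogenetic protein that opposes others of its kind. It had 16.1, 15.0 and 15.8 FPKM in uric acid libraries 1, 2 and 3, against 13.0, 12.5 and 11.9 FPKM in untreated libraries 1, 2 and 3 (0.33 ± 0.07, edgeR adjusted p = 0.0196). With 1 library left out its call was lost in 4 fits, without uric acid library 1 (0.0877) and without untreated library 1 (0.0508), 2 (0.105) or 3 (0.068), where the count of ligands that rose was 0. Of 18 receptors and coreceptors 8 were tested, and none passed the threshold with edgeR or DESeq2, and 0 had an unadjusted p under 0.05. Among them Acvr1b and Acvr2a, which pair as type I and type II activin receptors, were expressed at 15.2 ± 1.09 and 5.12 ± 0.304 FPKM in uric acid cells and 14.4 ± 0.421 and 4.62 ± 0.0653 FPKM in untreated cells (SD, n = 3 each). Their log2 fold changes were 0.08 ± 0.07 (adjusted p = 0.548) and 0.15 ± 0.09 (0.338). Acvr1c, the type I receptor ALK7, which is known to bind activin E in fat cells, averaged 0.358 ± 0.195 FPKM in uric acid cells and 0.282 ± 0.101 FPKM in untreated cells. Acvr2b, a further type II receptor, averaged 0.625 ± 0.249 FPKM in uric acid cells and 0.508 ± 0.0856 FPKM in untreated cells. Neither was high enough to be tested.

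Among 5 tested antagonists and inhibitory SMADs of the family (of 10 listed), 1 rose and 0 fell, and 1 had an unadjusted p under 0.05. The gene was Bambi, a decoy receptor without a kinase that dampens signals of the family. It had 33.5, 40.1 and 30.3 FPKM in uric acid libraries 1, 2 and 3, against 22.7, 25.0 and 25.3 FPKM in untreated libraries 1, 2 and 3 (0.51 ± 0.11, edgeR adjusted p = 0.0273). All uric acid libraries were above all untreated ones, yet the call was lost without uric acid library 1 (0.0847) and without untreated library 1 (0.0983), 2 (0.107) or 3 (0.0602), leaving 0. The activin trap Fstl3 had a log2 fold change of 0.17 ± 0.16 (adjusted p = 0.55), and Smad7, an inhibitory SMAD that the pathway itself induces, one of -0.05 ± 0.13 (0.852).

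INS-1E cells held almost no message for the receptor of GDF15. Gfral was between 0 and 0.0149 FPKM in uric acid libraries and between 0 and 0.0362 FPKM in untreated libraries, and was not tested. Its signalling partner Ret was present, with 14.8, 12.5 and 16.6 FPKM in uric acid libraries 1, 2 and 3, against 13.2, 12.5 and 13.4 FPKM in untreated libraries 1, 2 and 3. These groups overlapped (0.17 ± 0.10, adjusted p = 0.326).

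The FGF relatives of Fgf21 showed no rise. Of 17 other secreted FGF ligands 6 were measured and 3 were tested, of which 0 passed the threshold with edgeR (2 at an unadjusted p under 0.05) and 1, Fgf22, fell with DESeq2 and with limma on log2(FPKM + 1) or log2(FPKM + 0.1). Fgf22 averaged 2.68 ± 0.474 FPKM in uric acid cells and 4.74 ± 0.856 FPKM in untreated cells (SD, n = 3 each; -0.81 ± 0.25, edgeR adjusted p = 0.0762), and Fgf18 averaged 2.42 ± 1.04 FPKM in uric acid cells and 4.54 ± 0.732 FPKM in untreated cells (-0.89 ± 0.33, 0.128). Of the FGF receptors, 3 were tested, and 1 rose while 0 fell (3 at an unadjusted p under 0.05); with DESeq2 1 rose and 2, Fgfr1 and Fgfr3, fell. Fgfr4, the receptor that answers bile-acid-induced FGF signals in the liver, was the most abundant of them. It had 42.9, 47.5 and 52.7 FPKM in uric acid libraries 1, 2 and 3, against 36.2, 31.2 and 37.8 FPKM in untreated libraries 1, 2 and 3 (0.44 ± 0.10, edgeR adjusted p = 0.0317). The groups did not overlap, and it missed the threshold with uric acid library 3 (0.0515), untreated library 1 (0.0862) or untreated library 2 (0.139) left out, where 0 receptors rose. Fgfr1, the main partner of beta-klotho for FGF21, averaged 14.4 ± 1.44 FPKM in uric acid cells and 17.9 ± 2.14 FPKM in untreated cells (-0.31 ± 0.10, adjusted p = 0.105; 0.0491 with DESeq2). Klb, the gene of beta-klotho, was not analysed here.

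Stc1, the paralogue of Stc2, was lower with uric acid. It had 29.6, 21.2 and 28.1 FPKM in uric acid libraries 1, 2 and 3, against 35.1, 42.0 and 39.3 FPKM in untreated libraries 1, 2 and 3. The groups did not overlap, as in 31.0% of all tested features in either direction. Library 2, the highest of the uric acid group for Inhbe and Gdf15, was the lowest here. The log2 fold change was -0.57 ± 0.12 (SE, edgeR adjusted p = 0.0254), and Stc1 was the 1 gene that fell among 8 tested of 14 in the stanniocalcin and IGF list, where 0 rose and 3 had an unadjusted p under 0.05. The call was lost without uric acid library 1 (0.0584) and without untreated library 1 (0.0522), 2 (0.114) or 3 (0.0758), where 0 fell, and without uric acid library 3 there were 2 that fell, Stc1 and Igfbp3. The log2 fold change of Stc1 stayed between -0.65 and -0.44 with any 1 library left out. Pappa and Pappa2, proteases that stanniocalcins inhibit, were at no more than 0.0921 and 0.281 FPKM in any library. Of the substrates of these proteases, Igfbp4 had a log2 fold change of 0.01 ± 0.25 (adjusted p = 0.991) and Igfbp5 one of 0.18 ± 0.14 (0.437).

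**Figure D5:**
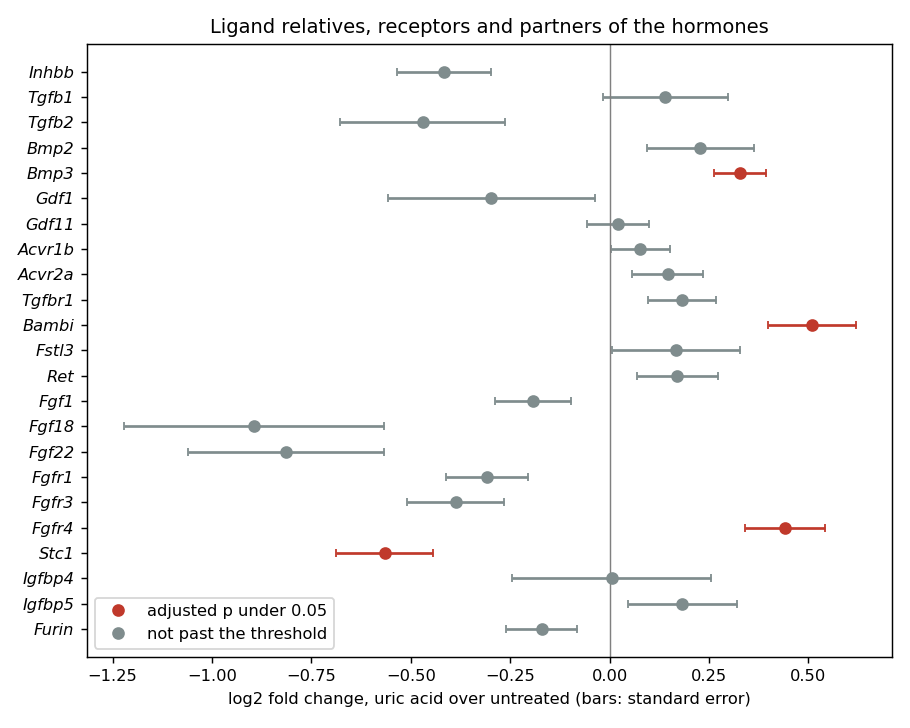
Log2 fold change with its standard error, uric acid over untreated, of tested relatives, receptors and partners of the hormones, from ligands of the TGF-beta family at the top to furin at the bottom. Bmp3, Bambi, Fgfr4 and Stc1 passed the threshold, Stc1 in the downward direction.

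Of 9 tested genes of hormone precursor processing (of 12 listed), which are enzymes apart from the convertase inhibitor Pcsk1n, 0 rose and 0 fell with edgeR, 2 had an unadjusted p under 0.05, and 1, the kinase Fam20c, fell with DESeq2. Furin, which cleaves precursors of the TGF-beta family, averaged 22.7 ± 2.54 FPKM in uric acid cells and 25.5 ± 1.50 FPKM in untreated cells (SD, n = 3 each; -0.17 ± 0.09, adjusted p = 0.266). Pcsk2, a convertase of secretory granules, was the most abundant protease of the list at 433 ± 11.7 FPKM in uric acid cells and 446 ± 17.2 FPKM in untreated cells (-0.04 ± 0.06, 0.673).

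Of 26 tested regulators known to act on the hormone genes or on the stress response, 13 rose and 0 fell (15 at an unadjusted p under 0.05). Over all tested features 4.99% were called higher and 2.99% lower, and 3199 of 12460 had an unadjusted p under 0.05. The median log2 fold change of the 26 was 0.31, beside 0.00127 over all tested features. The list was written with earlier results of these libraries known, so its count is no independent evidence. The 4 with the smallest p were Crebrf, Trib3, Atf3 and Atf4. Of these, Atf3 had an untreated mean of 0.710 FPKM, under the filter, and entered the tested set through the uric acid libraries. Atf4 had 257, 278 and 222 FPKM in uric acid libraries 1, 2 and 3, against 106, 114 and 113 FPKM in untreated libraries 1, 2 and 3 (1.18 ± 0.09, edgeR adjusted p = 0.00021). Ddit3 had 66.5, 98.2 and 46.5 FPKM in uric acid libraries 1, 2 and 3, against 18.6, 19.5 and 19.8 FPKM in untreated libraries 1, 2 and 3. In Atf4 and Ddit3, as in Inhbe and Gdf15, uric acid library 2 was highest and library 3 lowest. Not all regulators that rose had this order. Crebrf had 7.19, 7.39 and 7.40 FPKM in uric acid libraries 1, 2 and 3, and Ppp1r15b had 18.2, 16.1 and 16.3 FPKM. On the first principal component library 2 was also farthest from the untreated libraries and library 3 closest. The share of features with this order was not counted. Ern1, the sensor IRE1, rose by 0.88 ± 0.12 (edgeR adjusted p = 0.00328). The message of its target Xbp1 stood at 132 ± 13.9 FPKM in uric acid cells and 130 ± 7.89 FPKM in untreated cells (0.02 ± 0.09, 0.91). This is a level per gene, which does not tell spliced from unspliced Xbp1, so the activity of IRE1 is not read from it. Ppara, a fasting-induced activator of Fgf21 in liver, averaged 0.387 ± 0.121 FPKM in uric acid cells and 0.320 ± 0.0304 FPKM in untreated cells and was not tested, and Mlxipl, another activator of Fgf21, was not analysed here. With 1 library left out between 9 and 12 regulators rose and 0 fell.

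Other secreted factors of stress and injury showed no common direction. Of 14 tested of 32, 2 rose and 1 fell, beside 4.99% of all tested features called higher and 2.99% called lower. In this list 10 had an unadjusted p under 0.05, beside 3199 of all 12460 tested features, and the median log2 fold change was 0.02. With DESeq2 3 fell (Creld2, Manf and Metrnl), and without uric acid library 2 or 3 there were 2 that fell. Il23a, a subunit of interleukin-23, rose by 2.46 ± 0.45 (edgeR adjusted p = 0.0139) and Ucn3, a peptide of mature beta cells, by 0.50 ± 0.11 (0.0296), while Creld2, a protein of the endoplasmic reticulum that is also secreted, fell by 0.50 on the log2 scale (0.0294). The untreated mean of Il23a, 0.568 FPKM, lies under the filter, so it entered the tested set through the uric acid libraries. The calls of Il23a and Ucn3 were lost without untreated library 2 (0.0779 and 0.135) or 3 (0.0552 and 0.075), where 0 rose. Ucn3 was also lost without untreated library 1 (0.0895), and Creld2 without uric acid library 1 (0.0874) or untreated library 1 (0.0855), 2 (0.118) or 3 (0.083). Adm2, a peptide known as an ATF4 target, was at no more than 0.163 FPKM in any library. Vegfa, an angiogenic factor that ATF4 can induce, was abundant at 241 ± 17.5 FPKM in uric acid cells and 230 ± 11.2 FPKM in untreated cells (0.07 ± 0.07, adjusted p = 0.587).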

How the data were processed

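Per the labels' protocols, polyadenylated RNA of 6 INS-1E libraries was sequenced as read pairs of 150 bases after dUTP marking of the second strand. Tools listed, without roles, in the submitters' processing notes are StringTie 1.3.4d, HISAT2 2.0.4, cutadapt 1.9, edgeR and DESeq2; the genome build and the strand used for counting are not given in the sources used here. The deposited table holds FPKM computed by the authors and, per the file headers, count columns that the values show to be estimated counts: for 97.7% of 5024 small-RNA values the count equalled the value implied by FPKM and length, rounded up. Counts were taken as whole numbers and fitted in edgeR 4.0.16 (R 4.3.3; TMM factors, quasi-likelihood F test, two-sided, no covariate) for features whose FPKM averaged 1 or more. The standard error is the log2 fold change divided by the root of F. The fit was also run on counts simulated from its own model, which does not test how well these libraries meet that model. Medians of lists stand beside all tested features, with no set test.

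The hormone genes and all lists were chosen with earlier results of these data known. Of 178 genes in the lists of relatives and regulators 142 were in the table, 1 of them (Pappa) through an older symbol. Named were the 3 hormone genes, up to 4 called genes of each list by smallest p, a fixed set of receptors, partners and regulators, and the 4 nearest profiles (log2 CPM, prior count 2, settled symbols); other names were added after values were seen. Alternatives were scaling, the filter, limma 3.58.1 on log2(FPKM + 1) or log2(FPKM + 0.1), DESeq2 1.42.0, counts divided by 4, robust dispersion, the replicate number as a block, and each library left out.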

Additional observations from a re-analysis of the deposited data

How the results depend on the processing

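Each hormone gene kept its direction under all alternatives that tested it. The alternatives reuse the libraries on which the genes were selected, so this is a description and no test of direction. With 1 library left out the log2 fold changes ranged from 4.48 to 5.11 for Inhbe, from 1.49 to 2.00 for Gdf15 and from 0.97 to 1.24 for Fgf21. On log2(FPKM + 1) with limma they were 2.96 for Inhbe and 0.79 for Fgf21, where the added 1 shrinks folds of low genes. Fgf21 was not tested at a mean FPKM of 5 or more. Over all tested features 994 were called, against 1765 with DESeq2 and 231 to 1173 with 1 library left out. Of the relatives and regulators 20 were called, against 9 to 21 with 1 library left out, and the cause was not tested. The 20 are 23.8% of 84 tested, and without the regulators 12.1% of 58 were called, beside 7.98% of all tested features. With the replicate number as a block, 322 features and 11 relatives and regulators passed, and the adjusted p of Fgf21 was above 0.05. The deviations of same-numbered libraries correlated at 0.0684, -0.0492 and -0.190, and the numbers were not taken as pairs. Xbp1, which was never called, ranged from -0.074 to 0.077 with 1 library left out. Of the 20 called relatives and regulators, 6 passed in all 17 alternatives (Atf4, Cebpg, Ddit3, Ern1, Ppp1r15a and Trib3), Atf3 and Crebrf passed in the 16 that tested them, and 0 changed direction in any. Depth limits Fgf21 and untreated Inhbe most, at 12 to 35.25 and 13.5 to 20.25 full read pairs a library.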
